A study of Homo sapiens with 8 samples.

Results

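Kallikreins are secreted serine proteases, and the genes described here are 6 of them (KLK5, KLK6, KLK7, KLK8, KLK10 and KLK11) with 4 epithelial serine protease inhibitors (SPINK5, SPINK6, PI3 and SLPI). They are 10 of the 25369 genes in the table. The genes were chosen by name with their normalized counts in the same 8 libraries, and the differences between the gels, already known. Their levels and the differences between gels are therefore a description, and p-values printed for them carry no independent weight. RNA was sequenced from MCF10A, a spontaneously immortalized, non-malignant human mammary epithelial cell line, after 7 days inside one of 4 hydrogels, with 2 libraries per gel from 2 independent trials.

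The soft and stiff IPNs are interpenetrating networks of alginate and reconstituted basement membrane (rBM). The stiff IPN was made by crosslinking the alginate with calcium, so stiffness and added calcium cannot be told apart. The soft col:rBM gel combined type 1 collagen (col-1) with rBM, and the stiff col gel was dense col-1. Stiff col and stiff IPN thus differ in col-1, rBM, alginate and calcium together. All 4 groups share the cell line and culture time, no drug or genetic change is named for any of them, and a single line limits how far they stand for other epithelia. The study asked how mammary epithelial cells respond to stiffness with and without col-1.

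Kallikreins are made as inactive precursors that are cut to become active, and several of them can activate one another. In skin, KLK5 and KLK7 cut the desmosomal proteins that hold the outermost cells together. The Kazal-type inhibitors SPINK5 (LEKTI) and SPINK6 bind several kallikreins directly, while PI3 (elafin) and SLPI are small whey acidic protein family inhibitors best known for blocking neutrophil elastase. In the mammary gland and in breast tumors the expression of several kallikreins is known to vary.

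Values are normalized counts, that is reads per gene multiplied by 1 factor per library and rounded, from 13065615 to 18583116 reads on genes per library. At this depth 3 reads correspond to between 2.41 and 3.73 normalized counts, and values at or below that are not distinguished from 0 here (counting error only). All 10 mammary epithelial marker genes were above that level in every library. COL1A2, COL3A1 and LUM of 7 fibroblast markers, VWF and CLDN5 of 5 endothelial markers, and PTPRC and CD3E of 5 immune markers were at or below it throughout. Above it in every library were 3 fibroblast markers, DCN (526 to 1217 normalized counts), COL1A1 (168 to 333) and PDGFRB (4 to 9). So were 1 endothelial marker, KDR (22 to 267), and 3 immune markers, CD68, CD14 (89 to 412) and LYZ (7 to 14). The summed level of the immune markers was 2211 to 4571 normalized counts in soft IPN, 525 to 1643 in stiff IPN, 1446 to 5179 in soft col:rBM and 1105 to 4608 in stiff col, most of it from CD68, a lysosomal protein gene. With trial as a block (a fit described with the comparisons), CD68 was lower in stiff IPN than in soft IPN (log2 difference -2.24, adjusted p = 0.0126 by limma) and, between the stiff gels, higher in stiff col (1.72, 0.0187). In fits without the block, the second difference was 0.65 without stiff col replicate 1, and the first was -1.28 without stiff IPN replicate 2. Both directions held within each trial. CD68 had 4222 and 2092 normalized counts in soft IPN, 1220 and 324 in stiff IPN and 4360 and 990 in stiff col (trial 1, then trial 2). The sum of the fibroblast markers stayed between 775 and 1468 over all gels and that of the endothelial markers between 39 and 270. The sum of the mammary epithelial markers lay between 95528 and 171667. The part of any of these in the results was not tested. In bulk RNA, fewer expressing cells and less RNA per cell cannot be told apart.

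The 6 kallikrein genes lie close together on hg19 chromosome 19 (51446559 to 51531295, a span of 84.7 kb, all on the minus strand), inside a locus of 15 kallikrein genes that covers 265.1 kb. In order they are KLK5 (51446559 to 51456349), KLK6 (51461887 to 51472929), KLK7 (51479724 to 51487355), KLK8 (51499263 to 51505967), KLK10 (51515995 to 51523431) and KLK11 (51525472 to 51531295). KLK9 sits between KLK8 and KLK10 and the 2 annotated genes overlap by 204 bases on the same strand, so reads in that stretch may have been counted for neither. SPINK5 (chromosome 5, 147405246 to 147516945) and SPINK6 (147582357 to 147594700) are on the plus strand, 65.4 kb apart. PI3 (chromosome 20, 43803543 to 43805185, plus strand) and SLPI (43880880 to 43883205, minus strand) are 75.7 kb apart.

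Promoter windows from RefSeq (GRCh38.p14, 250 bases before to 50 after an annotated start) were matched by symbol to 7 of the 10 genes, in 12 windows out of 35116. KLK8, PI3 and SLPI had no entry. Windows of KLK5 and KLK7 are shown because their mRNAs differed widely between gels, and those of SPINK5 and SPINK6 because these nearby genes differed in pattern. Capitals mark matches, on either strand, to a TATA box (TATAAA), an AP-1 motif (TGANTCA), a STAT motif (TTCNNNGAA), a TEAD motif (GGAATG) or a GRHL motif (AACCNGTT). The 2 TATA matches of SPINK5 overlap each other. The windows are KLK5 at chr19:50952989-50953288 (minus strand), the most upstream window of KLK7 at chr19:50984015-50984314 (minus strand), SPINK5 at chr5:148063730-148064029 (plus strand) and the more downstream window of SPINK6 at chr5:148202792-148203091 (plus strand).
KLK5: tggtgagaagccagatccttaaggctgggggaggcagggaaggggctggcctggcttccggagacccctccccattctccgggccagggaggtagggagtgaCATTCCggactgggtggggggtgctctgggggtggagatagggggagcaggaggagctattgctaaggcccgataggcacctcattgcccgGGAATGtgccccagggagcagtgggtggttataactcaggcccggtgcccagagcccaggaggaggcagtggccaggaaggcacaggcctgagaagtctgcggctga
KLK7: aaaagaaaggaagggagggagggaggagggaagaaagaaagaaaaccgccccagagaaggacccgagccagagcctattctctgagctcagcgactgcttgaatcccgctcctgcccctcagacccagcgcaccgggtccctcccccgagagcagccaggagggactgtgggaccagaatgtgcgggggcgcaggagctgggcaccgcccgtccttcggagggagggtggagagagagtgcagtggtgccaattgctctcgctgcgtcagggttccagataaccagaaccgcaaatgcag
SPINK5: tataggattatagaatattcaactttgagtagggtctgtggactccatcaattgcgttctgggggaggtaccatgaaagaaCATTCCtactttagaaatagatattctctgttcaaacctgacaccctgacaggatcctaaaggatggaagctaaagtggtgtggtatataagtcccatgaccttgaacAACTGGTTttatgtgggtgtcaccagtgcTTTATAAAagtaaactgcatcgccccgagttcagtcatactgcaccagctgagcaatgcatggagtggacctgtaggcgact
SPINK6: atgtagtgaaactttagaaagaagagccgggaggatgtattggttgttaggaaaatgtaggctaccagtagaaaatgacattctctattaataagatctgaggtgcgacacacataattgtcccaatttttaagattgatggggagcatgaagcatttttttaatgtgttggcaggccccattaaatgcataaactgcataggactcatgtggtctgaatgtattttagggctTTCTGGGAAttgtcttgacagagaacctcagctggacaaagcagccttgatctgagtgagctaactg

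KLK5 held the TEAD letters at positions -148 and -57 relative to its annotated start. SPINK5 held TEAD letters at -169, GRHL letters at -61 and TATA letters at -32 and -30. SPINK6 held STAT letters at -17 in the window shown and AP-1 letters at -1 in its other window. The windows of KLK6, KLK7, KLK10 and KLK11 held none of the 5. Of all windows, 14.0% held the TEAD letters, 11.5% the TATA letters, 7.7% the AP-1 letters, 7.7% the STAT letters and 1.7% the GRHL letters. No motif searched was shared by the windows of KLK5, KLK7 and KLK10, which varied together. KLK8, which varied with them, had no window to search. The kallikrein windows had a GC content of 59.0% to 69.3% and the SPINK windows 39.0% to 43.7%.

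Across the 4 gels, KLK5, KLK7, KLK8 and KLK10 were highest in stiff IPN and low in both collagen gels. KLK5, a trypsin-like protease that can activate other kallikreins, had 67 and 196 normalized counts in stiff IPN, 0 and 10 in soft IPN, 2 and 0 in soft col:rBM and 1 and 2 in stiff col (trial 1, then trial 2). Both stiff IPN libraries stood above all others, and 5 of the 8 libraries were at or below 3 reads. KLK7, a chymotrypsin-like protease, had 127 and 289 in stiff IPN, 23 and 25 in soft IPN, 1 and 2 in soft col:rBM and 0 and 10 in stiff col. Its soft IPN libraries also lay above all 4 collagen libraries. KLK10 had 101 and 329 in stiff IPN, 17 and 28 in soft IPN, 2 and 1 in soft col:rBM and 1 and 17 in stiff col. Here stiff col replicate 2 reached the lower soft IPN library. KLK8, a trypsin-like protease also known as neuropsin, was the lowest of the 4, with 26 and 36 in stiff IPN, 6 and 8 in soft IPN, 7 and 2 in soft col:rBM and 0 and 5 in stiff col. Its stiff IPN libraries were apart from the rest, and soft col:rBM overlapped both soft IPN and stiff col.

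KLK6 and KLK11 were barely detected. KLK6 had 2 and 4 normalized counts in stiff IPN, 0 and 1 in soft IPN and 0 in all 4 collagen libraries. KLK11 had 4 and 5 in stiff IPN, 1 and 0 in soft IPN, 1 and 0 in soft col:rBM and 0 and 3 in stiff col. Both were under the filter of 10 normalized counts in at least 2 libraries, so 8 of the 10 genes were tested. KLK5, KLK7, KLK8 and KLK10 passed that filter through the stiff IPN libraries or, for KLK7 and KLK10, through both IPNs. Just inside it was KLK8, with 36 as its highest value, and just outside were KLK11 and KLK6, with highest values of 5 and 4.

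Among the inhibitors, SPINK6, PI3 and SLPI were also highest in stiff IPN, whereas SPINK5 varied little. SPINK6 had 158 and 597 normalized counts in stiff IPN, 14 and 24 in soft IPN, 51 and 36 in soft col:rBM and 3 and 10 in stiff col. No 2 gels overlapped for SPINK6, and the order was stiff IPN, soft col:rBM, soft IPN, stiff col. PI3 had 2616 and 3577 in stiff IPN, 165 and 387 in soft IPN, 36 and 182 in soft col:rBM and 46 and 244 in stiff col. Its stiff IPN libraries were far above the rest, and the other 3 gels overlapped. SLPI had 8072 and 11493 in stiff IPN, 4538 and 7219 in soft IPN, 3518 and 4576 in soft col:rBM and 2765 and 4322 in stiff col. The stiff IPN libraries were again above all others, by a smaller margin, and the upper soft col:rBM library overlapped soft IPN. SPINK5, the multi-domain inhibitor lost in Netherton syndrome, had 273 and 293 in stiff IPN, 233 and 350 in soft IPN, 159 and 266 in soft col:rBM and 134 and 217 in stiff col. Its highest value was 2.61 times its lowest, against 199 times for SPINK6 and 99.4 times for PI3.

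**Figure D1:**
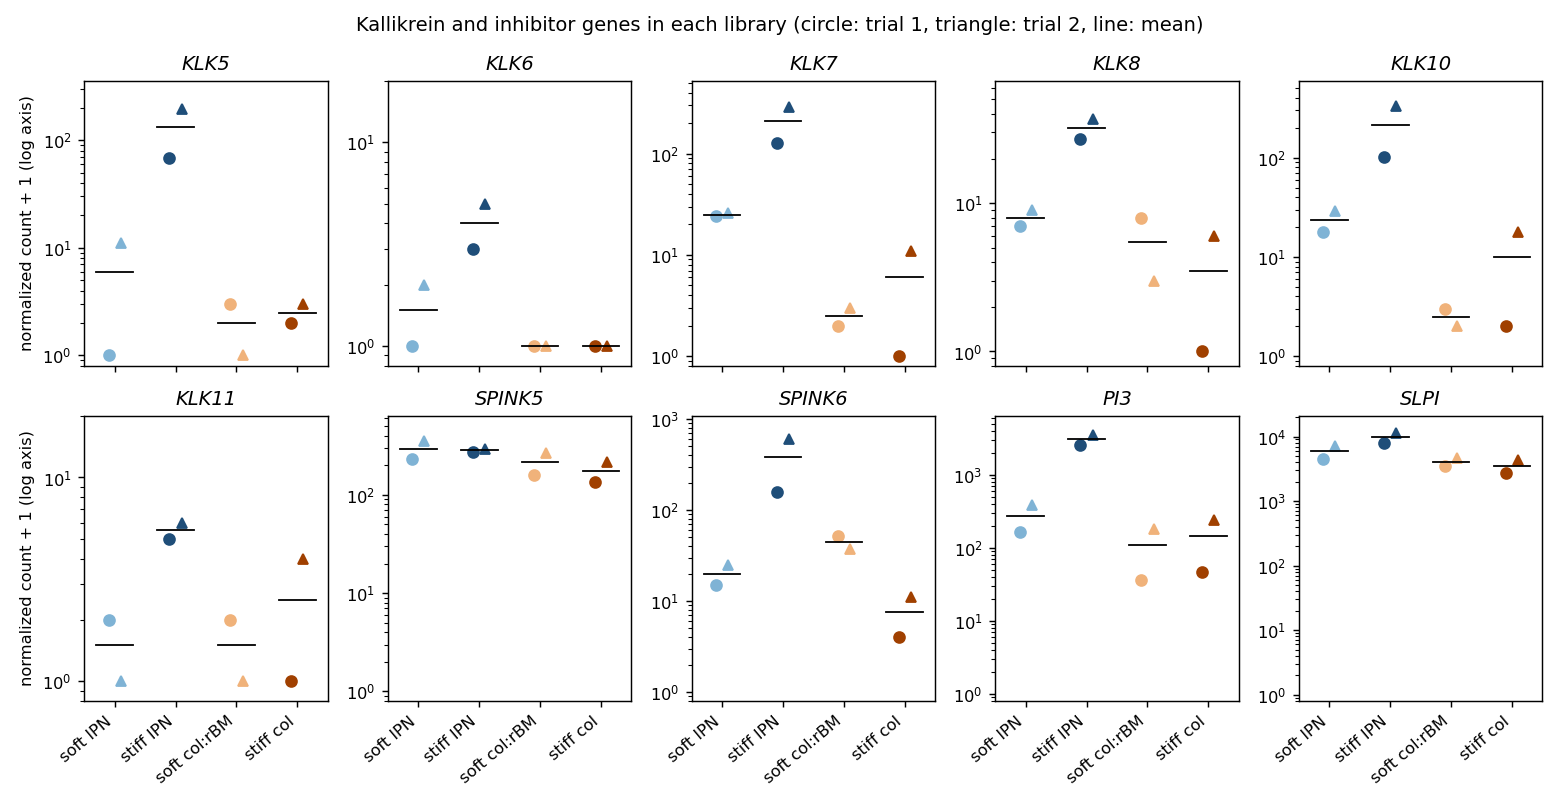
Normalized count plus 1 (log axis) of each kallikrein and inhibitor gene in each library, by gel, with a circle for trial 1, a triangle for trial 2 and a line at the mean of the 2. Both stiff IPN libraries are the highest for every gene except SPINK5, whose values stay between 134 and 350.

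Levels of different genes were compared per kb of annotated exon. The exons of all transcripts of a gene were merged, so a length can exceed that of a single mRNA (3.798 kb for KLK10, 0.606 kb for SPINK6). In stiff IPN the kallikreins ran KLK7 (85.0 normalized counts per kb), KLK5 (79.6), KLK10 (56.6), KLK8 (16.6), KLK6 (1.52) and KLK11 (1.45). The libraries of KLK7, KLK5 and KLK10 overlapped, from 26.6 to 119 per kb, and those of KLK8 lay below them at 13.9 and 19.3. The inhibitors in the same gel ran SLPI (16400 per kb), PI3 (5620), SPINK6 (623) and SPINK5 (59.2), and no neighbors in that order overlapped. In soft IPN the inhibitor order was SLPI (9860), PI3 (501), SPINK5 (61.0) and SPINK6 (31.4), so that SPINK5 and SPINK6 had exchanged places. SLPI alone made up 71.9% and 72.8% of the summed inhibitor level per kb in the stiff IPN libraries and 93.5% to 97.6% in the other 6.

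The summed level of the 6 kallikreins per kb was set against those of the Kazal-type inhibitors SPINK5 and SPINK6, neither of which is known to inhibit all 6. Against SPINK5 alone, in stiff IPN the sum was 2.37 and 5.65 times the SPINK5 level. In soft IPN it was 0.357 and 0.388 times, in soft col:rBM 0.187 and 0.0387 times, and in stiff col 0.031 and 0.296 times. The kallikrein sum was thus above SPINK5 in both stiff IPN libraries and below it in the other 6. It was below SPINK6 in all 8 libraries, and SPINK6 was at 261 and 985 per kb in stiff IPN. In stiff col replicate 2 (13.4 against 16.5 per kb) and soft IPN replicate 1 (17.4 against 23.1) this order can depend on the merged lengths. Against the sum of SPINK5 and SPINK6, the kallikrein sum was 0.426 and 0.331 times in stiff IPN, 0.242 and 0.252 times in soft IPN, 0.053 and 0.0187 times in soft col:rBM and 0.0263 and 0.217 times in stiff col. It was therefore below the 2 inhibitors together in every library. These are mRNA levels, and protein or protease activity was not measured in these data.

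**Figure D2:**
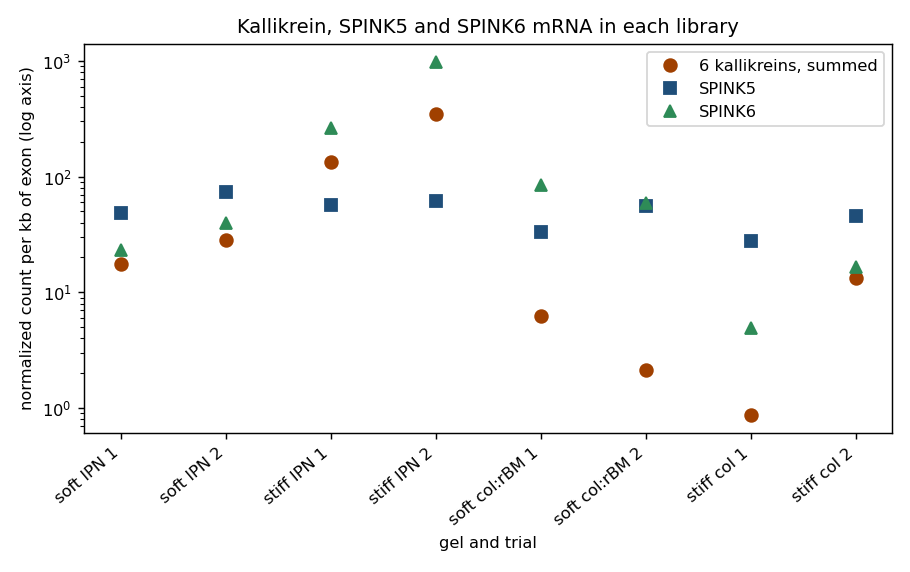
Summed level of the 6 kallikreins and levels of SPINK5 and SPINK6 in each library, in normalized counts per kb of exon (log axis), with 1 point of each kind per library. The kallikrein sum lies above SPINK5 in the stiff IPN libraries (135 and 346 against 57.1 and 61.3) and below it in the other 6, and lies below SPINK6 in all 8.

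The rest of the kallikrein locus was almost silent. KLK2, KLK3, KLK12 and KLK15 had 0 normalized counts in all 8 libraries, and KLK4 and KLK9 had at most 2. KLK13 had 3 and 3 in stiff IPN, at most 1 elsewhere. KLK14 had 4 and 5 in stiff IPN and 1 to 3 elsewhere, while KLK1, a tissue kallikrein, had 4 and 6 in soft IPN and 1 to 4 elsewhere. None of these 9 genes passed the filter. Detection was thus concentrated in KLK5, KLK7, KLK8 and KLK10, which are interrupted by the near-silent KLK6 and KLK9.

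**Figure D3:**
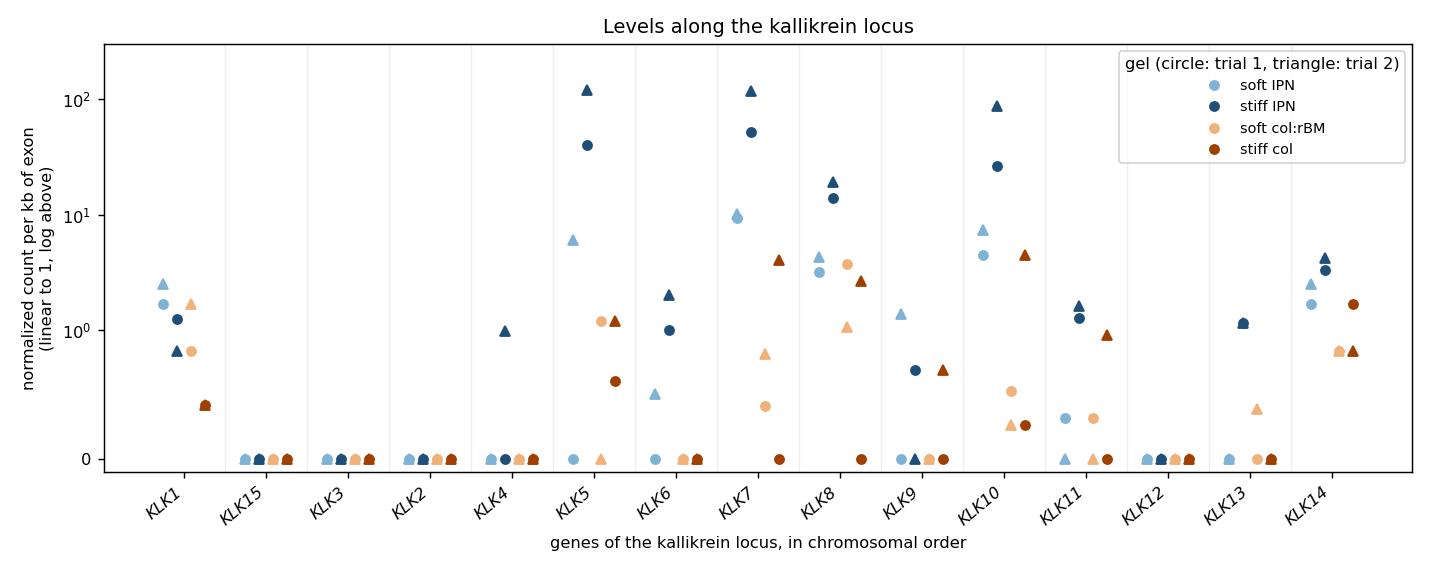
Normalized counts per kb of exon (linear to 1, log above) for the 15 genes of the kallikrein locus in chromosomal order, with a color per gel, circles for trial 1 and triangles for trial 2. The values of KLK5, KLK7, KLK8 and KLK10 reach 13.9 to 119 per kb in stiff IPN, and no other gene of the locus exceeds 4.2 per kb in any library.

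Soft and stiff IPNs were compared to ask what stiffness does without col-1. Mean levels in stiff IPN were 26.3-fold higher for KLK5, 9.56-fold for KLK10, 8.67-fold for KLK7 and 4.43-fold for KLK8. For the inhibitors they were 19.9-fold higher for SPINK6, 11.2-fold for PI3 and 1.66-fold for SLPI, while SPINK5 was 1.03-fold lower. On the log2(normalized count + 1) scale, which understates the change of low genes, the differences with their standard errors were 5.13 ± 1.20 for KLK5, 3.01 ± 1.05 for KLK10, 2.95 ± 1.05 for KLK7 and 1.99 ± 0.93 for KLK8. They were 3.99 ± 0.74 for SPINK6, 3.59 ± 0.95 for PI3, 0.75 ± 0.34 for SLPI and -0.01 ± 0.37 for SPINK5. Apart from SPINK5, whose trials gave 0.23 and -0.26, every tested gene was higher in stiff IPN in both trials. For 7 of the 8, both stiff IPN libraries were above both soft IPN libraries, which held for 20.5% of all genes tested. KLK8 reached 10 normalized counts only in stiff IPN, so passing the filter already implied this for it. Outside stiff IPN, KLK5 reached 10 only in soft IPN replicate 2. The median log2 difference was 2.98 over the 8 genes and -0.01 over all 13369 tested.

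By limma with 1 mean per gel, 0 of the 8 genes passed an adjusted p of 0.05 between the IPNs, as did 0 of all genes (0%). The unadjusted p was under 0.05 for 5 of the 8 and for 1245 genes in all. When trial was included as a block, 4 of the 8 passed, all higher in stiff IPN, against 1.69% of all genes in that direction. They were PI3 (adjusted p = 0.0131), SPINK6 (0.0197), SLPI (0.0376) and KLK5 (0.0409). KLK7 (0.0675), KLK10 (0.0707), KLK8 (0.196) and SPINK5 (0.977) did not pass. Over all alternatives the adjusted p of PI3 ran from 9.22e-06 to 0.999, that of SPINK6 from 0.000717 to 0.999, that of SLPI from 0.0183 to 0.999 and that of KLK5 from 0.00125 to 0.999. These calls depended on the libraries fitted, and most on the 2 soft IPN libraries. A left-out library leaves its gel with 1, so a lost call can reflect lost information as well as a smaller difference. PI3 and SPINK6 passed with the block when any 1 of the other 6 libraries was left out. SLPI lost its call when any 1 of the 4 collagen gel libraries was left out, and KLK10 passed in each of those 4 fits. KLK5 did not pass without stiff IPN replicate 2 or without either stiff col library, and KLK7 passed without either stiff col library. Without the block and without soft IPN replicate 1 the log2 difference was 3.40 for KLK5, 2.98 for PI3 and 0.42 for SLPI. Within trials 1 and 2 it was 6.09 and 4.16 for KLK5, 3.98 and 3.21 for PI3 and 0.83 and 0.67 for SLPI.

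Stiff col and stiff IPN were compared to ask how a stiff gel of col-1 differs from a stiff gel of basement membrane. All 8 tested genes were lower in stiff col in both trials. Mean levels were at least 45.0-fold lower for KLK5, whose stiff col libraries were at or below 3 reads per library, 41.6-fold lower for KLK7, 23.9-fold lower for KLK10 and 12.4-fold lower for KLK8. They were 58.1-fold lower for SPINK6, 21.4-fold for PI3, 2.76-fold for SLPI and 1.61-fold for SPINK5. The log2 differences were -5.56 ± 1.20 for KLK5, -5.86 ± 1.05 for KLK7, -4.93 ± 1.05 for KLK10 and -3.69 ± 0.93 for KLK8. They were -5.54 ± 0.74 for SPINK6, -4.83 ± 0.95 for PI3, -1.48 ± 0.34 for SLPI and -0.73 ± 0.37 for SPINK5. For 8 of the 8, both stiff col libraries were below both stiff IPN libraries, which held for 15.8% of all genes tested. For KLK8, passing the filter through stiff IPN alone already implied this, and nearly so for KLK5. The median was -4.88 over the 8 genes and 0.0 over all genes tested. This comparison shares its stiff IPN libraries with the one between the IPNs, so high values in those libraries enter both.

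Without a block, limma called 0 of the 8 genes and 0 of all genes (0%) between stiff col and stiff IPN, while the unadjusted p was under 0.05 for 7 of the 8 and for 838 genes in all. When trial was included as a block, 6 of the 8 passed, all lower in stiff col, against 1.47% of all genes in that direction. They were PI3 (adjusted p = 0.00527), SPINK6 (0.00624), SLPI (0.00624), KLK7 (0.0134), KLK10 (0.0235) and KLK5 (0.0376). KLK8 (0.0689) and SPINK5 (0.123) did not pass. With the block and without stiff col replicate 1, which held the lowest value of KLK7, KLK8, SPINK5, SPINK6 and SLPI, 3 of the 8 passed (KLK7, PI3 and SPINK6). Without either soft IPN library 4 passed (KLK7, PI3, SLPI and SPINK6). Without the block and without stiff col replicate 1 the log2 differences were smaller. They were -4.13 for KLK7, -3.35 for KLK10, -2.40 for KLK8, -3.64 for PI3 and -0.38 for SPINK5. Within trial 2 they were, in the same order, -4.72, -4.20, -2.62, -3.87 and -0.43. Over all alternatives the adjusted p of KLK7 ran from 0.000402 to 1.0, that of KLK10 from 0.000404 to 1.0, that of KLK5 from 0.000316 to 1.0, that of SPINK6 from 8.34e-05 to 1.0, that of PI3 from 0.000109 to 1.0 and that of SLPI from 0.00202 to 1.0.

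The 2 collagen gels were compared to ask what stiffness and col-1 density do together. SPINK6 was 6.69-fold lower in the stiff gel of the pair (log2 difference -2.73 ± 0.74, with -3.70 and -1.75 in the 2 trials). It was the single gene of the 8 whose libraries did not overlap with stiff col lower, against 9.5% of all genes tested. The kallikreins were at or near the limit of detection in both gels. KLK5 was at or below 3 reads in all 4 libraries, so no fold is given. The log2 differences of KLK7 (0.44 ± 1.05) and KLK10 (1.29 ± 1.05) each had opposite signs in the 2 trials, as did that of KLK8, which had a mean of 2.5 normalized counts in stiff col and 4.5 in soft col:rBM. In the fit without the block, PI3 (0.38 ± 0.95), SLPI (-0.21 ± 0.34) and SPINK5 (-0.27 ± 0.37) differed by less than their standard error. With the block their standard errors were 0.43, 0.14 and 0.21. Each had the same sign in both trials, with 0.35 and 0.42 for PI3, -0.35 and -0.08 for SLPI and -0.25 and -0.29 for SPINK5. By limma 0 of the 8 passed without the block, against 0% of all genes, and 0 with it, against 0% of all genes. An unadjusted p under 0.05 without the block was found for 1 of the 8 (SPINK6) and for 140 genes in all.

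The soft gels were compared to ask what col-1 in place of alginate does at low stiffness. KLK7 was at least 6.43-fold lower and KLK10 at least 6.03-fold lower in soft col:rBM, where both were at or below 3 reads per library. Their log2 differences, -3.35 ± 1.05 and -3.22 ± 1.05, ranked 1 and 2 among all negative differences of the 13369 genes tested. KLK7 differed by -3.58 and -3.12 in the 2 trials and KLK10 by -2.58 and -3.86. KLK8 (-0.70 ± 0.93) and KLK5 (-0.94 ± 1.20) had opposite signs in the 2 trials. PI3 was 2.53-fold lower (-1.62 ± 0.95), SLPI 1.45-fold lower (-0.51 ± 0.34) and SPINK5 1.37-fold lower (-0.47 ± 0.37), each in both trials but with overlapping libraries. SPINK6 alone was higher in soft col:rBM, 2.29-fold (1.18 ± 0.74). The libraries did not overlap with soft col:rBM lower for 2 of the 8, against 10.4% of all genes. By limma 0 of the 8 passed without a block (0% of all genes) and 0 with it (0.0224% of all genes), with an unadjusted p under 0.05 for 2 of the 8 and for 190 genes in all without the block.

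The effect of stiffness in the collagen gels minus that in the IPNs was negative for all 8 tested genes, and for 6535 of all 13369 tested. High stiff IPN values enter this contrast too, with their sign reversed. The kallikreins were at or near the limit of detection in both collagen gels, so they had little room to fall. The collagen gels also differ in col-1 density. The difference of the 2 effects was -6.72 ± 1.05 for SPINK6, -4.63 ± 1.69 for KLK5, -3.21 ± 1.34 for PI3, -2.99 ± 1.31 for KLK8, -2.51 ± 1.49 for KLK7, -1.71 ± 1.48 for KLK10, -0.97 ± 0.48 for SLPI and -0.25 ± 0.52 for SPINK5. Several of these were smaller in fits without the block that left out 1 library. Without stiff col replicate 1 the difference was -0.78 for KLK7, -0.13 for KLK10, -1.70 for KLK8 and -2.02 for PI3. Without soft IPN replicate 1 it was -2.90 for KLK5 and -0.63 for SLPI, and that of SPINK5 became positive (0.04). Within trials 1 and 2 the difference was -3.42 and -1.61 for KLK7, -3.09 and -0.34 for KLK10 and -4.95 and -1.04 for KLK8. It was -3.63 and -2.78 for PI3, -6.67 and -2.58 for KLK5, -1.18 and -0.75 for SLPI and -0.47 and -0.04 for SPINK5. For SPINK6 it was -7.11 in trial 1 and -6.33 in trial 2. By limma 0 of the 8 passed without the block, against 0% of all genes, and 0 passed with it, against 0.015% of all genes. An unadjusted p under 0.05 without the block was found for 3 of the 8 and for 278 genes in all. The lowest adjusted p with the block was that of SPINK6 (0.0688).

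**Figure D4:**
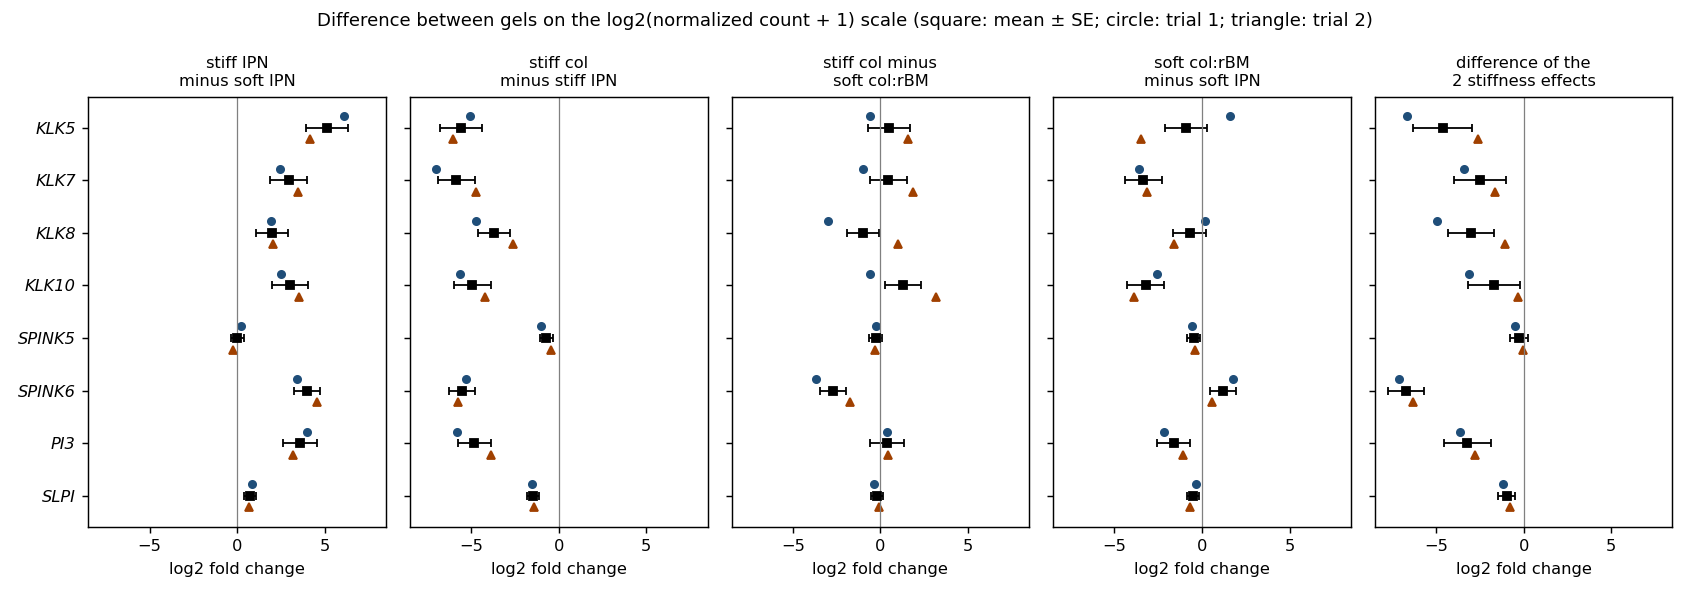
Log2 differences between gels for the 8 tested genes on the log2(normalized count + 1) scale, 1 panel per comparison, with squares and bars for the mean ± SE of the fit without a block, circles for trial 1 and triangles for trial 2. In the first panel, stiff IPN minus soft IPN, all genes but SPINK5 are positive in both trials (0.67 to 6.09), and in the second, stiff col minus stiff IPN, all 8 are negative in both trials, while in the third panel KLK5, KLK7, KLK8 and KLK10 have trials on both sides of 0.

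The 8 tested genes varied together over the libraries to different degrees, which is given as a description of 8 points that share libraries and gels. Pearson's r of log2 values was between 0.82 and 0.98 for the 6 pairs among KLK5, KLK7, KLK8 and KLK10, highest for KLK7 with KLK10. It was 0.71 to 0.94 between those kallikreins and SPINK6, PI3 or SLPI. It was 0.48 to 0.84 between SPINK5 and the other 7 genes. SPINK6 had r = 0.54 with SPINK5, and PI3 had r = 0.95 with SLPI.

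The genes nearest in pattern to the mean of the 4 kallikreins were sought among all other genes tested. In order of Pearson's r over the 8 libraries they were SPRR2A (0.984), S100A7 (0.981), SPRR3 (0.974), SPRR1A (0.969), KSR1 (0.969), A2ML1 (0.969), BSPRY (0.968) and MUC16 (0.967). The 100th gene still had r = 0.896, so the 8 are the top of a continuous range. SPRR2A had 57 and 196 normalized counts in stiff IPN and 7 and 25 in soft IPN, and at most 4 in the collagen gels. S100A7, which encodes the antimicrobial protein psoriasin, had 395 and 586 in stiff IPN, 9 and 12 in soft IPN, and at most 11 in the collagen gels. Pearson's r does not show the size of a change. KSR1 had only 11 and 13 in stiff IPN, 7 and 9 in soft IPN and 3 to 6 in the collagen gels. SPRR genes encode small proline-rich precursors of the cornified envelope, and A2ML1 encodes a broad protease inhibitor of the epidermis.

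**Figure D5:**
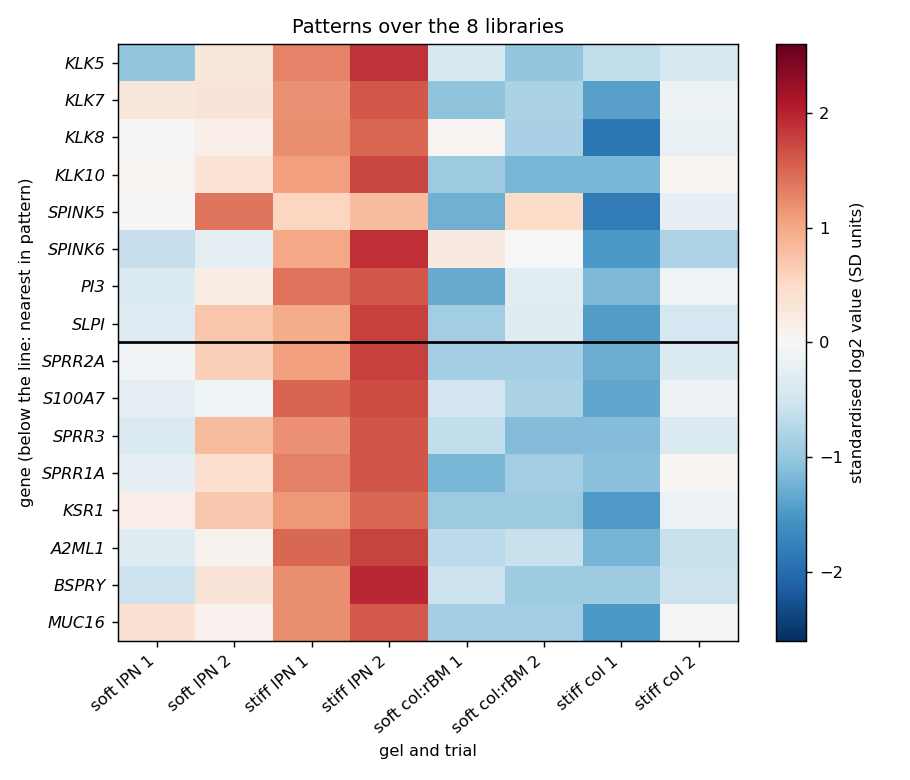
Standardised log2 values (in SD units over the 8 libraries) of the 8 tested kallikrein and inhibitor genes, above the line, and of the 8 genes nearest in pattern to the kallikreins, below it, with a column per library. The stiff IPN columns are the most positive for every gene but SPINK5, whose highest value is in soft IPN replicate 2 (1.39).

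Other serine protease inhibitors were examined as a list of 26 genes, of which 20 were tested. Between the IPNs, 0 passed without the block and 5 of 20 with it, all higher in stiff IPN, against 1.69% of all genes in that direction, and 15 did not pass. They were A2ML1 (log2 difference 3.36, adjusted p = 0.0169 with the block), SERPINB2 (2.75, 0.017), SERPINB4 (2.58, 0.0455), SERPINB13 (2.32, 0.0406) and SERPINB3 (2.03, 0.0344). Their adjusted p over all alternatives reached 0.999. A2ML1 had 112 and 157 normalized counts in stiff IPN against 9 and 16 in soft IPN, 5 and 6 in soft col:rBM and 2 and 6 in stiff col. SERPINB2, an inhibitor of urokinase, had 354 and 995 in stiff IPN and 77 to 102 in the other 3 gels. SERPINB3 and SERPINB4 are near-identical neighbors whose reads may be split by the counting. The median over the list was 0.13, near the -0.01 of all genes. From stiff IPN to stiff col, 4 of the 20 passed with the block, all lower in stiff col, against 1.47% of all genes: A2ML1 (-4.87), SERPINB13 (-3.19), SERPINB2 (-2.87) and SERPINB3 (-2.04). Without the block and without stiff col replicate 1 the difference of SERPINB13 was -1.83, against -4.34 and -2.05 within trials 1 and 2.

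Proteases that activate or accompany kallikreins were a list of 13 genes, of which 6 were tested. PLAU, which encodes urokinase, had 3348 and 4474 normalized counts in stiff IPN, 1662 and 2092 in soft IPN, 1394 and 1500 in soft col:rBM and 1913 and 2131 in stiff col. It was 1 of 6 to pass between the IPNs with the block (log2 difference 1.05, adjusted p = 0.0189, up to 0.999 over the alternatives), and lower again in stiff col (-0.94 against stiff IPN, adjusted p = 0.0206). ST14, which encodes matriptase, an activator of kallikrein precursors, was also lower in stiff col (-0.99, adjusted p = 0.0252 with the block), with 1144 and 1006 normalized counts against 1969 and 2305 in stiff IPN. Between the IPNs ST14 did not pass (0.41, 0.167). PRSS27 (-1.55, 0.122) and PRSS3 (-1.26, 0.237), named for the size of their differences between the IPNs, did not pass. With the block, the 1 of 6 higher in stiff IPN stands against 1.69% of all genes, and 2 of 6 were lower in stiff col, against 1.47%. Without the block 0 of 6 passed in both comparisons.

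Of 6 substrates and receptors of kallikreins 2 were tested, and 0 of 2 passed in either comparison with or without the block. F2RL1, which encodes the protease-activated receptor PAR2, had 596 and 764 normalized counts in stiff IPN and 419 and 554 in soft IPN (log2 difference 0.49, adjusted p = 0.101 with the block). IL1B had 1959 and 861 in stiff IPN and 1510 and 1187 in soft IPN (-0.04, 0.917). The desmosomal substrates CDSN, DSC1 and DSG1, and CAMP, did not pass the filter.

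Terminal epidermal differentiation genes were a list of 12, of which 6 were tested. Between the IPNs 2 of 6 passed with the block, both higher in stiff IPN, against 1.69% of all genes in that direction, and 0 without it. They were SPRR1A (log2 difference 2.97, adjusted p = 0.0282) and IVL, which encodes the envelope precursor involucrin (1.91, 0.0317). SPRR1B did not pass (1.78, 0.143). From stiff IPN to stiff col 3 of 6 passed with the block, all lower in stiff col, against 1.47% of all genes, namely SPRR1A (-4.25, 0.00781), SPRR1B (-3.91, 0.026) and IVL (-1.70, 0.0422). Without the block and without stiff col replicate 1 the differences were -2.14 for SPRR1B and -0.49 for IVL. Within trials 1 and 2 they were -5.58 and -2.24 for SPRR1B and -2.37 and -1.03 for IVL. Between the IPNs, that of IVL was 1.13 without the block and without soft IPN replicate 1, against 2.15 and 1.66 within the trials. The list medians were 1.56 and -2.03 in the 2 comparisons, against -0.01 and 0.0 for all genes. Of the 10 mammary epithelial markers, 4 had positive and 6 negative log2 differences between the IPNs, with a median of -0.17. With the block KRT17 and CDH1 were higher in stiff IPN (2 of 10, against 1.69% of all genes), ITGB4 was lower (1 of 10, against 2.13%) and 7 did not pass. From stiff IPN to stiff col 3 were positive and 7 negative, with a median of -0.52, and EPCAM, CDH1, KRT14 and KRT17 were lower with the block (4 of 10, against 1.47%). Without the block and without stiff col replicate 1 the difference of KRT14 was -0.39 and that of KRT17 -1.52. Within trials 1 and 2 they were -2.08 and -0.96 for KRT14 and -2.68 and -2.46 for KRT17. The part of these in the kallikrein differences was not tested.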

How the data were processed

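RNA-seq libraries of MCF10A cells from 4 hydrogels were analysed, 2 per gel, grouped by their titles. The authors trimmed reads with Trim Galore, aligned them to hg19 (Bowtie2 in the methods, TopHat2 2.0.13 in the submitters' notes), counted reads per gene with HTSeq and used DESeq2. The gene annotation and strand setting are not given in the sources used here. The deposited values are a normalized signal: read counts times 1 factor per library, rounded to whole numbers, so whole reads could not be recovered and count models were not run. Multimapped reads had been removed, which can lower near-identical genes.

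Normalized counts were tested with limma 3.58.1 (R 4.3.3) on log2(value + 1), with 1 mean per gel over all 8 libraries, a variance trend and robust moderation. The filter kept genes that reached 10 in 2 or more libraries (13369, of 25369 rows, 28 of which carry a symbol turned into a date), with Benjamini-Hochberg adjustment over all of them at 0.05. The script was checked on simulated data. Replicate numbers were taken as the 2 trials of the study: deviations of same-numbered libraries from their gel means correlated in all 6 pairs of gels (r from 0.28 to 0.82), so values with the trial as a block are given beside the others. With 2 libraries per gel, p-values without the block measure the spread between these trials. Those with the block measure the spread that remains after a shift common to all gels of a trial is removed. Positions and exon lengths came from GENCODE 44 lifted to hg19 and promoters from RefSeq. The 10 genes, the gene lists and the tests were chosen with earlier results of these data known. Named outside the 10 were kallikrein genes above 3 reads in any library, and per list the called genes and the 3 with the largest difference between the IPNs, and the 8 genes nearest in pattern. Alternatives covered the pseudocount, filter, scaling, the gels fitted, the block and each left-out library. A log2 difference given without 1 library is from a fit without the block unless stated. The trial left in that gel is then set against the mean of both trials of the other gel, so a shift between trials enters. Of the immune markers first listed, 1 gene is not reported here.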

Additional observations from a re-analysis of the deposited data

Results flagged for a closer look

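2 genes moved in opposite directions from the soft to the stiff gel in the 2 gel systems, and the collagen gels also differed in col-1 density. SPINK6 was higher in the stiffer gel in both IPN trials and lower in both collagen trials, and the effect in the collagen gels minus that in the IPNs was -6.72 on the log2 scale (limma adjusted p = 1.0, 0.0688 with the trial as a block, and 0.00496 to 1.0 over the alternatives). SLPI moved the same way, by -0.97 (adjusted p = 1.0, 0.197 with the block, and 0.0398 to 1.0 over the alternatives). The test of the difference was not passed by either gene. Groups of 2 libraries are too small to look for single libraries far from the rest.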

How the results depend on the processing

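Whether trial was a block decided the calls. Over all genes, 0 were called without the block in each of the 5 comparisons and 511 with it between the IPNs, 330 between stiff col and stiff IPN, 0 between the collagen gels, 3 between the soft gels and 2 for the difference of the stiffness effects. Of the 8 tested kallikrein and inhibitor genes, 4 were called between the IPNs when trial was a block. Combined with the block, a pseudocount of 0.5 gave 3, one of 5 gave 6, upper-quartile scaling gave 4, and a fit of the 2 gels alone gave 5. Between stiff col and stiff IPN these numbers were, in the same order, 6, 5, 7, 6 and 7. Shares of all genes called are given only with and without the block. Counts in the other settings therefore have no background to compare with. The 2 gels alone with the block gave 1 between the collagen gels and 2 between the soft gels. Leaving out each library in turn, with or without the block, gave 0 to 4 between the IPNs, 0 to 7 between stiff col and stiff IPN and 0 to 3 for the difference of the stiffness effects. Of the genes in the other lists, 8 were called between the IPNs with the block, 8 with either other pseudocount or upper-quartile scaling, 9 in the 2 gels alone, and 0 to 16 without single libraries. Between stiff col and stiff IPN they were 9 with the block, 1 with a pseudocount of 5 and no block, 9 and 11 with the block and a pseudocount of 0.5 and 5, 9 with upper-quartile scaling, 9 in the 2 gels alone, and 0 to 20 without single libraries. The 2 gels alone gave 8 between the collagen gels and 2 between the soft gels, and leaving out libraries gave 0 to 2 between the soft gels and 0 to 9 for the difference of the stiffness effects. With the block, the 4 genes called between the IPNs fell to 0 without either soft IPN library and the 6 between stiff col and stiff IPN to 3 without stiff col replicate 1 and to 4 without either soft IPN library, while leaving out stiff IPN replicate 1 gave the 16, 20 and 9 of the other lists. Without the block, leaving out stiff col replicate 2 gave 1 gene, KLK7, between stiff col and stiff IPN. A gel left with 1 library was assumed to vary like the others. The combinations with the block were chosen after seeing the data, and the causes were not tested.

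Directions turned in some alternatives, among them fits that left out a library, with or without the block. Between the collagen gels the 2 trials had the same sign for PI3 (0.35 and 0.42), SPINK5 (-0.25 and -0.29) and SLPI (-0.35 and -0.08). Turns of those 3 genes there thus do not show trials that disagreed. Without single libraries the log2 difference between stiff col and soft col:rBM ran from -1.22 to 2.22 for KLK5, -1.29 to 2.17 for KLK7, -2.39 to 0.39 for KLK8, -0.29 to 2.88 for KLK10, -0.64 to 0.10 for SPINK5, -0.81 to 1.57 for PI3 and -0.54 to 0.11 for SLPI. Between the soft gels it ran from -2.67 to 0.79 for KLK5 and -1.97 to 0.58 for KLK8. SPINK5 between the IPNs ran from -0.31 to 0.28 and was 0.01 with upper-quartile scaling, with or without the block, and its difference of stiffness effects ran from -0.62 to 0.11. Between the IPNs PRSS3 ran from -2.83 to 0.32 and IL1B from -0.64 to 0.55, and between stiff col and stiff IPN F2RL1 ran from -0.34 to 0.02 and IL1B from -0.63 to 0.55. Among 1853 alternatives for single genes and comparisons, 41 turned direction, 319 passed the threshold newly and 1493 did neither. edgeR and DESeq2 were not run because whole reads could not be recovered. Having 2 libraries per gel limits every comparison, and values at or under 3 reads limit those of the kallikreins in the collagen gels.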
